A study of Mus musculus with 24 samples.

Results

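The transcripts of 10 ion channel genes were measured in SIM-A9, a microglial line from mouse: the potassium channel genes Kcnn4, Kcna3, Kcnj2, Kcnk6 and Kcnk13, the proton channel gene Hvcn1, and the cation channel genes Trpv2, Trpm7, Trpm2 and Piezo1. They were chosen by symbol as channels of these kinds, and are 10 of the 54838 genes in the deposited count table. All 10 had enough reads to be tested, among 13116 genes that were. The study exposed the cells to probes used in neuroscience and compared their inflammatory response with that to LPS, bacterial lipopolysaccharide. Poly-A RNA was sequenced in 24 libraries, 3 for each of 8 groups. Each treatment lasted 2 h, after 2 h in serum-free DMEM/F12, and was given as 30 uL of a 10x stock added to 270 uL of medium. The final doses are not given in the sources used here.

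The groups were control cells and cells given the voltage-sensitive dyes DiBASC2 or Di-2-ANEPEQ, the calcium dye Fura-2, or LPS. Another group was given AAV (adeno-associated virus, used to deliver genes). The remaining groups were given single-walled carbon nanotubes (SWCNT) of 2 kinds, labelled (GT)6 SWCNT and COOH SWCNT. (GT)6 commonly denotes nanotubes wrapped in a short DNA of GT repeats, and COOH carboxylated nanotubes. The labels spell the dyes in several ways: the table header has DiSBAC2 and Di2ANEPEQ, and the sample titles DiBASC2 and Di2ANEQPEQ. All groups are of the same cell line grown in the same medium. Nothing in the labels says that the 3 libraries of a group came from separate cultures, so p-values measure the spread between these libraries, which may be technical. The cells were grown alone, without the neurons that the probes are made for.

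Potassium channels set the membrane potential of microglia, and a negative potential drives calcium into the cell when calcium channels open. Potassium leaving through such channels is also a known trigger of the NLRP3 inflammasome, which releases interleukin-1 beta. Hvcn1 lets protons out of the cell and so balances the charge moved by the NADPH oxidase, while channels of the TRP and Piezo families admit cations in response to lipids, oxidants or stretch. Voltage-sensitive dyes report the potential that these channels help to set.

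Library totals ran from 17364272 to 29259221 counts. Microglia and macrophage markers were present, with 12 of 12 listed genes passing the low-count filter and a summed level of 2511 to 2762 CPM over the 24 libraries, where CPM are read counts adjusted for library size. Csf1r and Cd68 were high in control cells, at 507 and 817 CPM on average, whereas P2ry12 and Tmem119, which mark microglia in the brain, were at 2.35 and 4.13 CPM. No astrocyte, endothelial, fibroblast or T cell marker passed the filter. Of the neuron markers 1 of 5 passed, and of the oligodendrocyte markers 2 of 5. Index numbers follow the groups in order, so library order and treatment cannot be told apart.

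The promoters of Kcnn4, Kcnj2 and Kcnk13, the channels called with LPS and with both nanotubes, are shown first. Their patterns differed. Kcnn4 was lower with LPS and higher with both nanotubes, by less. Kcnj2 was higher with LPS and both nanotubes, and Kcnk13 was lower with LPS and both nanotubes. Each sequence is the 250 bases before the annotated start (RefSeq, GRCm38.p6), 5′ to 3′ on the gene's strand, with motifs in capitals. Kcnn4 lies at chr7:24370013-24370262, Kcnj2 at chr11:111065914-111066163 and Kcnk13 at chr12:99964249-99964498, all on the plus strand.
Kcnn4: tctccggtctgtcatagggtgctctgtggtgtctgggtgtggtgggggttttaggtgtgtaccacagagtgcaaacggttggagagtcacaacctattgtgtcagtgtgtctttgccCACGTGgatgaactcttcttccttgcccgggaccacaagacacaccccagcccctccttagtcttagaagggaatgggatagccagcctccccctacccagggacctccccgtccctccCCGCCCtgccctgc
Kcnj2: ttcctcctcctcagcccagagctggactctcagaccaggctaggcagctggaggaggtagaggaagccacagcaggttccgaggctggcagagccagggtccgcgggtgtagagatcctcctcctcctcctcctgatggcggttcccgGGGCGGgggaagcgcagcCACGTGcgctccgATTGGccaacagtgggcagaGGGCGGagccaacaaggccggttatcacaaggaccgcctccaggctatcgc
Kcnk13: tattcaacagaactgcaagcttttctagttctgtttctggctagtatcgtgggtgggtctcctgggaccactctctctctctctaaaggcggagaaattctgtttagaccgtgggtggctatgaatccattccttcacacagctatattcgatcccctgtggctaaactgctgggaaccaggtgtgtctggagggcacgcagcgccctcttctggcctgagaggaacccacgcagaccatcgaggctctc
The capitals mark an E-box (CACGTG), GC boxes (GGGCGG on either strand) and, in Kcnj2, a CCAAT box read on the other strand. The E-box stands 133 bases before the start in Kcnn4 and 84 bases before it in Kcnj2. Among 32851 promoter windows of the same length, 6.02% hold that E-box, 32.7% a GC box and 33.8% a CCAAT box. Trpm7 also has the E-box, 25 bases before its start. It was not called with any treatment, except with LPS when trends with gene length and GC content were removed. None of the 8 motifs searched was found in the Kcnk13 window, which says only that these letters are not there. The other motifs were TGACG (17.8% of windows), TGANTCA of AP-1 (6.75%), GAGGAAGT of PU.1 (2.44%), TATAAA (12.4%) and the NF-kB motif (3.90%), each on both strands. None of these stood in the windows printed above. Among the other channels, GAGGAAGT and the NF-kB motif were found before Trpv2, in different windows. TGACG and TATAAA were found before Trpm2, and TATAAA before Piezo1. GC boxes were also found before Kcna3, Trpm2 and Piezo1. Windows were found for 8 of the 10 genes, all but Kcnk6 and Hvcn1. Motifs and promoters were chosen after the comparisons had been seen, and a match is no evidence of binding.

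In control cells the cation channel gene Trpv2 had the most transcript for its length. Levels of different genes were compared as CPM per kilobase of exon, because long transcripts collect more reads. Trpv2, a cation channel of phagocytic cells (chr11:62574486-62600515), stood at 38.6 ± 1.70 (SD, n = 3), above 87.5% of the 11154 protein-coding genes tested. Piezo1, the mechanically gated channel (chr8:122481698-122551329), followed at 19.4 ± 1.26, and Hvcn1 (chr5:122206804-122242297) at 17.0 ± 1.49. The libraries of these last 2 genes overlapped, so their order is not settled.

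Next came Kcnn4, which encodes the calcium-activated channel KCa3.1 (chr7:24370263-24386690), at 13.4 ± 0.221 CPM per kb. Trpm7, a channel fused to a kinase and permeable to magnesium (chr2:126791565-126876230), had 10.8 ± 0.381, and Kcnk13, the tandem-pore channel THIK-1 of microglia (chr12:99964499-100062682), had 9.80 ± 0.949. Trpm7 and Kcnk13 overlapped between libraries. Kcnk6, the tandem-pore channel TWIK2 (chr7:29221926-29232515), stood at 7.69 ± 0.324, close to the middle of protein-coding genes, with 51.3% of them lower. Kcnj2, the inward rectifier Kir2.1 (chr11:111066164-111076821), stood at 5.03 ± 0.164.

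Trpm2 and Kcna3 were the lowest. Trpm2, a calcium-permeable channel opened by ADP-ribose under oxidative stress (chr10:77907722-77970563), had 1.16 ± 0.169 CPM per kb. Kcna3, the voltage-gated channel Kv1.3 (chr3:107036169-107038070), had 0.882 ± 0.0384, from only 31 to 38 counts in each control library. It stood above 14.4% of protein-coding genes. All positions are those of GENCODE on GRCm38, and every gene is protein-coding. Exons of Hvcn1 overlap those of Tctn1 on the other strand by 1574 bases, and exons of Piezo1 overlap those of Ctu2 on the other strand by 2441 bases. Whether counting used strand is not given in the sources used here, so reads in those stretches cannot be assigned with certainty.

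**Figure D1:**
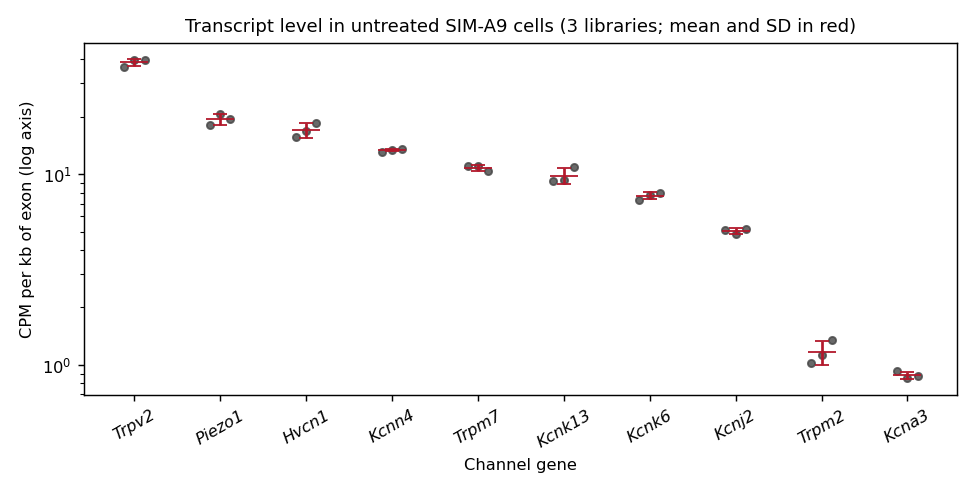
Transcript level of each channel gene in the 3 control libraries, in CPM per kilobase of exon on a log axis. Points are libraries, and red marks show the mean and SD. Trpv2 is highest at 38.6 and Kcna3 lowest at 0.882.

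Group means of most channels lay within a narrow range. The highest group mean was 1.06 times the lowest for Trpm7, 1.08 times for Hvcn1, 1.16 times for Piezo1, 1.17 times for Trpv2 and 1.20 times for Trpm2. It was 1.31 times for Kcnk6, 1.43 times for Kcnk13, 1.44 times for Kcnj2 and 1.54 times for Kcnn4. Kcna3 had the widest ratio, 1.75, but also the widest spread within groups, with a coefficient of variation of 25.2% against 2.5% to 7.62% for the other 9 genes. Its ratio therefore rests on few reads.

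**Figure D2:**
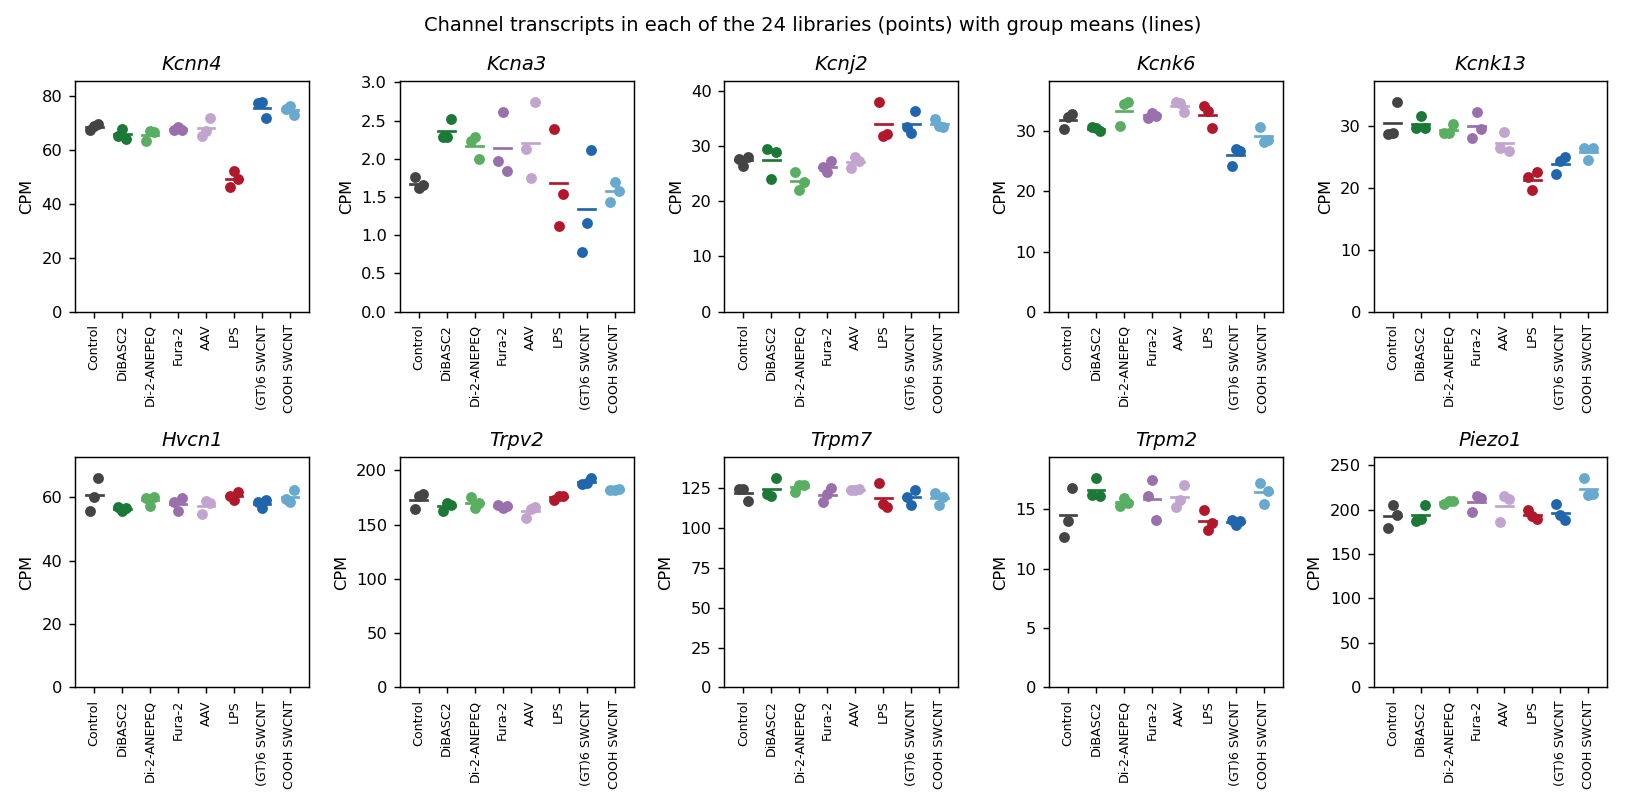
Level of each channel gene in every library, in CPM on axes that start at 0, by treatment; points are libraries and lines group means. Kcnn4 drops in LPS to between 46.2 and 52.2 CPM, Kcnj2 stands higher in LPS and both nanotube groups, and no channel was called with either voltage dye.

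The voltage dye DiBASC2 gave no change in these channels that passed the test. None of the 10 was called at an adjusted p under 0.05 (edgeR's quasi-likelihood test, Benjamini-Hochberg over all genes), where 5.47% of all genes tested were called. DESeq2 also called 0. By edgeR 3 of the 10 had an unadjusted p under 0.05, beside 2451 of the 13116 genes tested. The median log2 difference was 0 for the 10 genes and 0 for all genes.

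Those 3 were Kcna3, Trpm2 and Hvcn1. Kcna3 was at 1.76, 1.62 and 1.66 CPM in control and at 2.29, 2.29 and 2.52 CPM with DiBASC2. All 3 dye libraries lay above all controls, yet the log2 difference of 0.50 ± 0.24 (SE) had a 95% interval from 0.00 to 0.99 and an adjusted p of 0.266. Trpm2 stood at 12.7, 14.0 and 16.8 CPM in control and at 16.2, 17.7 and 16.1 CPM with the dye. Its groups overlapped, with a log2 difference of 0.20 (95% interval 0.03 to 0.38, adjusted p = 0.178 by edgeR). Without the highest control library, replicate 3, it was called at a log2 difference of 0.32, and without control replicate 1 the difference was 0.13 and the adjusted p 0.583. Hvcn1 stood at 55.6, 60.2 and 66.2 CPM in control and at 57.0, 55.6 and 56.6 CPM with the dye, which also overlapped (log2 difference −0.10, interval −0.21 to 0.00, adjusted p = 0.244 by edgeR). It was called when trends with gene length and GC content were removed, while without control replicate 3 its difference was −0.04 and its adjusted p 0.762.

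The other 7 genes had log2 differences between −0.07 and 0.03 with DiBASC2, and their libraries overlapped the controls. Kcnj2 was at 29.4, 24 and 28.9 CPM against 27.7, 26.3 and 28 CPM in control, a difference of 0.00 (interval −0.15 to 0.15). Kcnk13 also had a difference of 0.00 (interval −0.14 to 0.13), and Piezo1 one of 0.01 (interval −0.09 to 0.11). Apart from Kcna3, the intervals of the 9 better-measured channels lay between −0.21 and 0.38, which bounds the change these libraries leave room for.

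With Di-2-ANEPEQ, again 0 of 10 channels were called by edgeR, against 3.08% of all genes. DESeq2 called 0. By edgeR 2 had an unadjusted p under 0.05, Kcnj2 and Piezo1, beside 2161 of the 13116 genes tested. Kcnj2 was at 25.3, 22.0 and 23.5 CPM, below every control library. Its log2 difference was −0.21 ± 0.07 (interval −0.36 to −0.06), with an adjusted p of 0.118 by edgeR. It was called when only the libraries of these 2 groups were fitted.

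Piezo1 was at 206, 210 and 209 CPM with Di-2-ANEPEQ and at 180, 205 and 194 CPM in control. The groups did not overlap, but the difference was small (log2 0.11, interval 0.01 to 0.21, adjusted p = 0.250 by edgeR). The overlapping gene Ctu2 went the other way without being called, at 37.0 CPM against 43.2 CPM in control (log2 difference −0.22, adjusted p = 0.0578 by edgeR). Kcna3 lay above control in all 3 libraries here too, at 2.24, 2.28 and 2.00 CPM, with an interval from −0.12 to 0.88. Both dyes were compared with the same 3 control libraries, so this is not a separate repeat. Kcnn4 lay below control in all 3 Di-2-ANEPEQ libraries, 1 of them barely, at 63.3, 67.1 and 66.4 CPM. Its log2 difference was −0.06 (interval −0.15 to 0.03). The remaining 6 channels overlapped control and had differences between −0.05 and 0.11. How many of all genes separate from control in this way is not given here. The separations are therefore described gene by gene and are no result about channels.

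**Figure D3:**
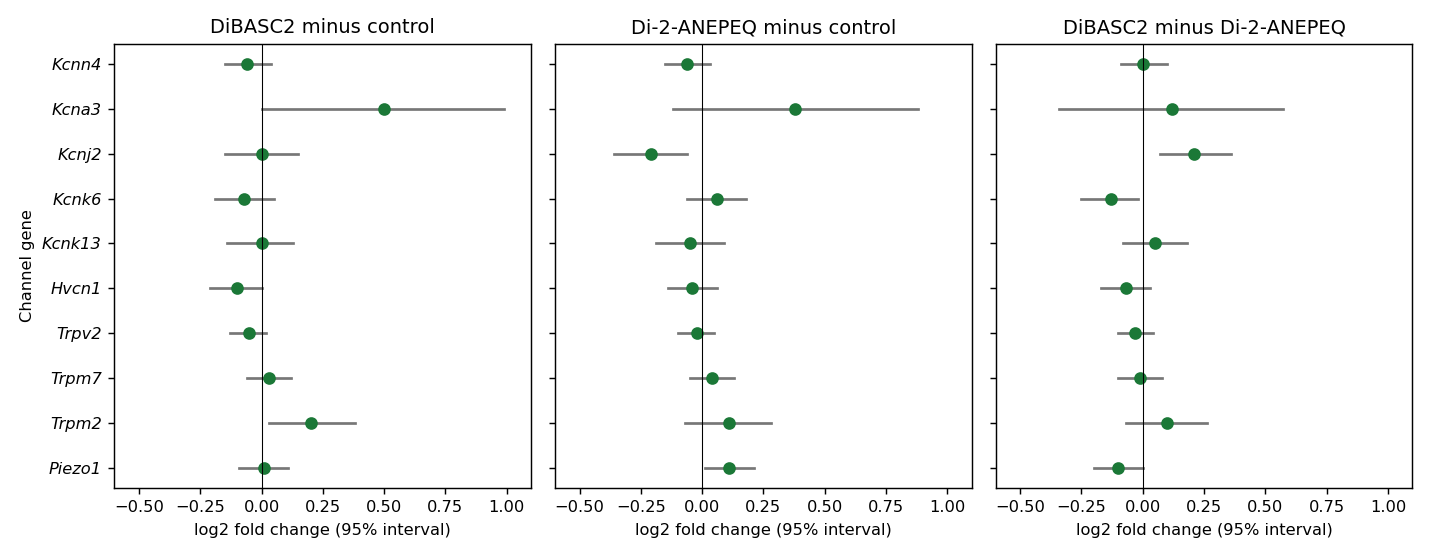
Log2 fold change of each channel gene with DiBASC2 and with Di-2-ANEPEQ against control, and between the dyes, with 95% intervals (3 libraries a group). None was called; Kcna3 has the widest interval, and Kcnj2 lies at −0.21 with Di-2-ANEPEQ and at 0.00 with DiBASC2.

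Set against each other, the dyes differed in none of the 10 channels by edgeR, where 8.95% of all genes were called. DESeq2 called 0. By edgeR 3 had an unadjusted p under 0.05, Kcnj2, Kcnk6 and Piezo1, beside 3139 of the 13116 genes tested. Kcnj2 came closest, with DiBASC2 above Di-2-ANEPEQ by 0.21 (interval 0.07 to 0.36, adjusted p = 0.0576 by edgeR). DiBASC2 replicate 2, at 24 CPM, lay within the Di-2-ANEPEQ range, and the other 2 DiBASC2 libraries lay above it. Kcnj2 was called, at a log2 difference of 0.25, with upper-quartile scaling and at 0.22 with a mean of at least 50 counts required. It was also called at 0.28 without Di-2-ANEPEQ replicate 1 and at 0.30 without DiBASC2 replicate 2. Fitting replicate number as a block gave the call too. Over all alternatives its difference lay between 0.14 and 0.30 and its adjusted p between 0.00833 and 0.306. Kcnk6 was at 30.7, 30.6 and 30.0 CPM with DiBASC2 and at 30.9, 34.6 and 34.8 CPM with Di-2-ANEPEQ (log2 difference −0.13, interval −0.25 to −0.02). Doses are not given, so the comparison is between these preparations.

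The calcium dye Fura-2 and AAV also left all 10 channels uncalled by edgeR and by DESeq2. For Fura-2 0.252% of all genes were called. By edgeR 1 channel, Piezo1, had an unadjusted p under 0.05 (log2 difference 0.11, interval 0.01 to 0.21), beside 1411 of the 13116 genes tested. For AAV 5.00% were called, and by edgeR 2 channels had an unadjusted p under 0.05, beside 2720 of the 13116 genes. Kcnk13 stood at 26.5, 29.1 and 26 CPM with AAV against 28.7, 28.9 and 33.9 CPM in control (log2 difference −0.16, interval −0.30 to −0.02). Trpv2 stood at 156, 165 and 166 CPM against 164, 177 and 178 CPM (log2 difference −0.09, interval −0.17 to −0.02). Both pairs of groups overlapped. Leaving Kcna3 aside, the intervals lay between −0.21 and 0.30 for Fura-2 and between −0.30 and 0.32 for AAV. Kcna3 lay above all controls with Fura-2 as with the voltage dyes, at 1.98, 2.61 and 1.85 CPM (interval −0.17 to 0.85). With AAV it averaged 2.21 CPM and overlapped control (interval −0.10 to 0.89). It also overlapped control with LPS and both nanotubes.

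With LPS the potassium channel genes Kcnn4, Kcnk13 and Kcnj2 were called. In edgeR's test 3 of 10 channels were called, close to the share of all genes, 28.3%. Of these 1 was higher and 2 lower, beside 13.8% and 14.5% of all genes. The calcium-activated channel Kcnn4 was at 46.2, 52.2 and 49.2 CPM with LPS and at 67.1, 68.6 and 69.4 CPM in control. Every LPS library lay far below every control, and Kcnn4 fell by 0.47 ± 0.05 on the log2 scale (adjusted p = 2.87e-10 by edgeR). The tandem-pore channel Kcnk13 fell from 28.7, 28.9 and 33.9 CPM to 21.7, 19.7 and 22.5 CPM, again without overlap. Its log2 fold change was −0.51 ± 0.07 (adjusted p = 4.41e-07 by edgeR). Kcnj2, the inward rectifier, rose to 37.9, 31.8 and 32.2 CPM, above all controls (log2 fold change 0.31 ± 0.07, adjusted p = 0.00105 by edgeR).

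The 3 calls held without any single library of the 2 groups. The log2 differences of the remaining channels lay between −0.05 and 0.03 with LPS, and their libraries overlapped the controls. Kcnk6 was at 34.2, 33.3 and 30.6 CPM, a difference of 0.03 (interval −0.09 to 0.16). Hvcn1 was at 60.3, 59.0 and 61.6 CPM, a difference of −0.01 (interval −0.11 to 0.09), while Cybb, the catalytic subunit of the NADPH oxidase it works beside, rose to 516 CPM, where control had 258 CPM (log2 fold change 1.0 ± 0.03, adjusted p = 3.10e-24 by edgeR). Ctu2, which shares exon sequence with Piezo1, rose by 0.22, and Piezo1 itself had a difference of 0.01. Trpm7 had a difference of −0.04 (interval −0.14 to 0.05) and was called, at −0.12, with length and GC trends removed.

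With (GT)6 SWCNT the inward rectifier gene Kcnj2, Kcnn4 and Trpv2 rose, and Kcnk6 and Kcnk13, the tandem-pore channel genes among the 10, fell. By edgeR 5 of 10 were called against 20.4% of all genes, 3 higher and 2 lower, beside 9.90% and 10.5% of all genes in these directions. Kcnj2 was at 33.4, 32.3 and 36.4 CPM, above all controls (log2 fold change 0.31 ± 0.07, adjusted p = 0.00143 by edgeR). Kcnn4 was at 77.2, 77.7 and 71.8 CPM, also above all controls (0.15 ± 0.05, adjusted p = 0.0196 by edgeR). Its rise was small, and the call was lost without (GT)6 SWCNT replicate 1 or replicate 2, with an adjusted p of up to 0.0815. Trpv2 rose to 187, 189 and 193 CPM, where control had 164, 177 and 178 CPM (0.13 ± 0.04, adjusted p = 0.00841 by edgeR).

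The 2 tandem-pore channels fell with (GT)6 SWCNT. Kcnk13 was at 22.2, 24.3 and 25.1 CPM, below all controls, with a log2 fold change of −0.36 ± 0.07 (adjusted p = 0.000218 by edgeR). Kcnk6, not called in LPS, was at 24.2, 27.1 and 26.8 CPM against 30.4, 32.4 and 32.9 CPM in control (−0.30 ± 0.06, adjusted p = 0.000385 by edgeR). Set directly against LPS, Kcnk6 was lower with (GT)6 SWCNT, with a log2 difference of −0.33 (adjusted p = 8.00e-05 by edgeR). Hvcn1, Trpm7, Trpm2, Piezo1 and Kcna3 were not called against control. Kcna3 ranged from 0.780 to 2.11 CPM over the 3 libraries, with an interval from −0.95 to 0.19.

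COOH SWCNT gave 4 calls among the 10 channels by edgeR, beside 20.0% of all genes. Of these 3 were higher and 1 lower, beside 9.39% and 10.6%. Kcnj2 was at 34.9, 33.7 and 33.4 CPM, higher than every control (log2 fold change 0.32 ± 0.07, adjusted p = 0.00137 by edgeR). Piezo1 rose to 236, 216 and 218 CPM, where control had 180, 205 and 194 CPM (0.21 ± 0.05, adjusted p = 0.00204 by edgeR). With length and GC trends removed its value was 0.10 and its adjusted p 0.0501. Ctu2 was at 40.8 CPM against 43.2 CPM in control and was not called (log2 difference −0.08, adjusted p = 0.437 by edgeR).

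Kcnk13 fell with COOH SWCNT to 26.5, 24.5 and 26.4 CPM (log2 fold change −0.24 ± 0.07, adjusted p = 0.0135 by edgeR). The call was lost without COOH SWCNT replicate 2 or control replicate 3, its highest control; without that control the log2 fold change was −0.14 and the adjusted p 0.198. Kcnn4 was at 75.0, 76.0 and 73.0 CPM, above all controls, but only just passed (0.13 ± 0.05, adjusted p = 0.0471 by edgeR). It remained called in 1 of the 6 fits that left out a library, with an adjusted p of up to 0.143. Trpv2 was at 182, 182 and 183 CPM, above all controls but not called (0.07, interval 0.00 to 0.15). Trpm2 was at 17.3, 15.5 and 16.6 CPM (0.19, interval 0.01 to 0.36, adjusted p = 0.132 by edgeR) and was called at 0.31 without control replicate 3. Kcnk6 leaned lower here too without being called (−0.13, interval −0.25 to −0.01, adjusted p = 0.138 by edgeR).

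**Figure D4:**
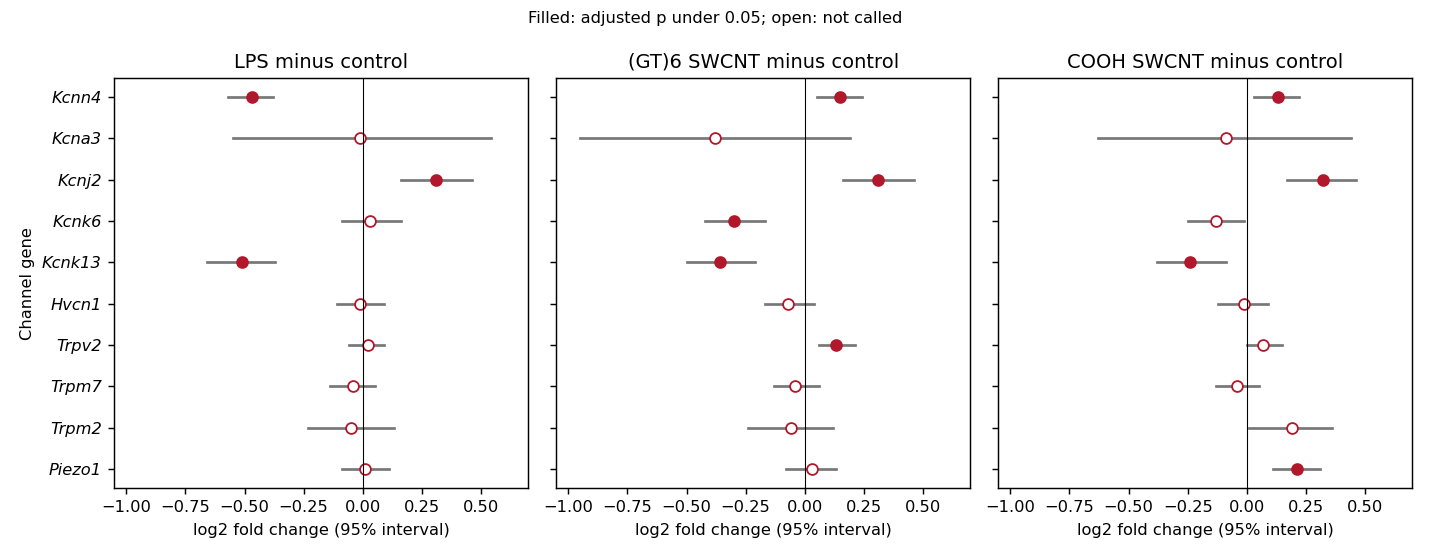
Log2 fold change of each channel gene with LPS, (GT)6 SWCNT and COOH SWCNT against control, with 95% intervals (3 libraries a group); filled points are called. Kcnn4 lies at −0.47 in LPS and at 0.15 and 0.13 with the nanotubes, and Kcnj2 between 0.31 and 0.32 in all 3.

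Kcnn4 separated the nanotubes from LPS. It was higher with (GT)6 SWCNT than with LPS by 0.62 ± 0.05 on the log2 scale (adjusted p = 2.68e-13 by edgeR), and with COOH SWCNT by 0.60 ± 0.05 (adjusted p = 4.85e-13 by edgeR). In (GT)6 SWCNT against LPS 3 of 10 channels were called, beside 21.6% of all genes: Kcnn4 and Trpv2 higher (9.63% of all genes) and Kcnk6 lower (11.9%). The Trpv2 call was lost without (GT)6 SWCNT replicate 3 or LPS replicate 1. In COOH SWCNT against LPS 5 of 10 were called, beside 37.8% of all genes, with 4 higher and 1 lower where 18.1% and 19.7% of all genes were. Kcnk13 was higher with COOH SWCNT by 0.28 ± 0.07, Trpm2 by 0.24 ± 0.09 and Piezo1 by 0.20 ± 0.05, and Kcnk6 lower, at −0.16 ± 0.06. The Trpm2 call was lost without COOH SWCNT replicate 1 or 3 or LPS replicate 2 or 3, and the Kcnk6 call without COOH SWCNT replicate 2 or 3 or LPS replicate 1 or 2, or with upper-quartile factors. With length and GC trends removed Trpm2 was at 0.12 and Piezo1 at 0.06, neither of them called. Kcnj2 did not separate the 3 treatments, with differences from LPS of 0.00 (interval −0.14 to 0.15) and 0.01 (interval −0.14 to 0.15).

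Between the nanotubes, edgeR called 3 of 10 channels, beside 21.4% of all genes, all lower with (GT)6 SWCNT (9.48% of all genes, while 11.9% were higher). Piezo1 was at 207, 194 and 188 CPM with (GT)6 SWCNT and at 236, 216 and 218 CPM with COOH SWCNT, with no overlap (log2 difference −0.19 ± 0.05, adjusted p = 0.00649 by edgeR). Trpm2 was at 14.1, 13.7 and 14.0 CPM against 17.3, 15.5 and 16.6 CPM (−0.24 ± 0.09, adjusted p = 0.0395 by edgeR). Kcnk6 was at 24.2, 27.1 and 26.8 CPM against 30.8, 28.2 and 28.5 CPM (−0.17 ± 0.06, adjusted p = 0.0454 by edgeR). These calls were fragile: without COOH SWCNT replicate 1 none of the 3 held, and with length and GC trends removed none held and Piezo1 was at −0.06. The Trpm2 and Kcnk6 calls each held in 1 of the 6 fits that left out a library: Trpm2 without COOH SWCNT replicate 2, and Kcnk6 without (GT)6 SWCNT replicate 2. Kcnk6 was not called with DESeq2 size factors or when only these 2 groups were fitted either. DESeq2 called Piezo1 alone.

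The genes whose levels followed the channels most closely over the 24 libraries were found among 9492 genes by Pearson's r of log2 CPM. These libraries share their groups, so the values describe the group pattern. Kcnn4 was followed by Fzd7, a Wnt receptor (r = 0.971), and Gpr183, an oxysterol receptor (r = 0.951). Gpr183 was at 49.8 ± 3.11 CPM in control, 9.94 ± 0.353 CPM with LPS and 66.2 ± 3.44 CPM with (GT)6 SWCNT, a wider swing in the direction that Kcnn4 took. Kcnk13 was followed by Rgs14 (r = 0.916) and Abhd15 (r = 0.915), Kcnj2 by C920009B18Rik (r = 0.902) and Azin1 (r = 0.885), and Trpv2 by Dok2 (r = 0.888) and Dgkd (r = 0.878). Piezo1 was followed by Nup210 (r = 0.881) and Ptprs (r = 0.874), and Kcnk6 less closely by Ing1 (r = 0.832) and Elovl6 (r = 0.830).

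Genes around these channels were described from 7 lists of 143 genes: other potassium channel pores and their auxiliary subunits, other TRP and mechanically gated channels, the NADPH oxidase and proton transporters, channel partners, chloride channels and the sodium-potassium pump. Of these 76 were tested, and 29 had no count in any library. Only 8 of 38 other potassium channel pore genes passed the filter. With DiBASC2 4 of the 76 were called, and with Di-2-ANEPEQ and Fura-2 0. The 4 calls are 5.26% of those tested, near the 5.47% of all genes. The DiBASC2 calls were Pkd1, which rose (log2 fold change 0.19 ± 0.06), and Slc4a7, a bicarbonate transporter, Pip5k1a and Clcn6, which fell by 0.20, 0.17 and 0.17. Pip5k1a makes the lipid PIP2, which Kcnj2 needs to open. AAV gave 4 calls among the 76, or 5.26% beside 5.00% of all genes, with Tpcn1, Rac1 and Lrrc8b higher and Clic1 lower.

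With LPS 27 of the 76 were called, 17 higher and 10 lower, or 35.5% beside 28.3% of all genes. Besides Cybb, these included Slc4a7, which rose by 0.77 ± 0.04 on the log2 scale, Pip5k1a (0.70 ± 0.05), the lysosomal channel gene Mcoln2 (0.61 ± 0.05) and Lrrc8d, a subunit of the volume-regulated anion channel (0.95 ± 0.04). The potassium channel subunit Kcnab2 fell by 0.17. (GT)6 SWCNT gave 14 calls, 11 higher and 3 lower (18.4%, beside 20.4% of all genes), and COOH SWCNT 19, 14 higher and 5 lower (25%, beside 20.0%). Chloride and volume-regulated channels held 7 of the higher calls with each nanotube, among 18 tested, and 1 of the lower, where 9.90% and 9.39% of all genes were higher and 10.5% and 10.6% lower. With LPS the same list held 4 higher and 3 lower calls, beside 13.8% and 14.5% of all genes. Clic4 rose from 665 ± 8.73 CPM to 927 ± 45.5 CPM with (GT)6 SWCNT and to 803 ± 16.5 CPM with COOH SWCNT. It also rose with LPS, to 961 ± 12.2 CPM. Lrrc8a rose by 0.68 ± 0.12 with (GT)6 SWCNT and by 0.33 ± 0.12 with COOH SWCNT. Cybb rose with both nanotubes too, by 0.26 ± 0.03 and 0.24 ± 0.03, while Hvcn1 had differences of −0.07 (interval −0.17 to 0.04) and −0.01 (interval −0.12 to 0.09).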

How the data were processed

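Poly-A RNA of 24 libraries was analysed, 3 in each of 8 groups taken from the sample titles. The authors deposited 1 table of raw read counts per gene, as whole numbers whose sums differ between libraries. STAR 2.5.4b and the build GRCm38.p6 are named in the submitters' processing notes. The counting tool, strand setting and annotation release are not given in the sources used here. Symbols and positions came from GENCODE M21 on GRCm38: 53947 of 54838 identifiers matched with their version, 54809 without it and 29 not at all. Columns were matched to samples by name, allowing for the spelling of DiBASC2.

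The counts were tested with edgeR 4.0.16 in R 4.3.3: filterByExpr defaults, TMM factors, 1 quasi-likelihood fit with a mean per group over all libraries (16 residual degrees of freedom), and 11 two-sided contrasts. Calls were made at an adjusted p under 0.05 (Benjamini-Hochberg over the 13116 genes of a contrast). The SE is the absolute log2 fold change divided by the square root of F, and intervals are 95%. CPM use TMM-scaled library sizes, and CPM per kb divide by the length of all exons merged. The common biological coefficient of variation was 4.12%, and the 24 replicate pairs differed by more than sampling noise (chi-square per degree of freedom 2.43 to 18.9), so each library was counted. The fits were also run on counts simulated from a model of the same kind, which cannot show how well that model suits these libraries.

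The genes, lists and tests were chosen with earlier results of these data known. All 10 channels are named. From each list the genes open to naming were, for the dyes, Fura-2 and AAV, the 2 called genes with the smallest adjusted p, and for LPS and the nanotubes the 2 with the largest change, at a mean of at least 1 CPM. For each channel called against control, the 2 genes most like it, at a mean of at least 5 CPM, are given. Alternatives were the test and size factors of DESeq2 1.42.0, upper-quartile factors, every gene kept, genes with a mean of at least 50 counts kept, a replicate block, separate fits of each pair of groups, removal of length and GC trends, and leaving out each library in turn.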

Additional observations from a re-analysis of the deposited data

How the results depend on the processing

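Of 1529 values of the 10 channels under the alternatives, 1468 stayed on their side of the threshold, 49 were no longer called and 12 were newly called. No value that was called before or after changed sign, while 108 values called in neither fit did. The number of channels called moved by over 1.5 times as follows. With length and GC trends removed it was 1 for DiBASC2 against control (Hvcn1), 2 for COOH SWCNT against control (Kcnj2 and Kcnk13), 1 for (GT)6 SWCNT against COOH SWCNT (Trpv2) and 3 for COOH SWCNT against LPS (Kcnn4, Kcnk6 and Kcnk13). With only the 2 groups compared it was 1 for Di-2-ANEPEQ against control. For DiBASC2 against Di-2-ANEPEQ it was 1 with upper-quartile factors, 1 with a mean of at least 50 counts and 1 with the replicate block, each time Kcnj2. For (GT)6 SWCNT against COOH SWCNT it was 1 with no low-count filter and 1 with the DESeq2 test. Smaller moves were to 4 for LPS with trends removed (Trpm7 gained), to 3 for COOH SWCNT against control (Kcnn4 lost) and 2 for (GT)6 SWCNT against LPS (Trpv2 lost) with no filter, to 4 for COOH SWCNT against LPS with no filter or only the 2 groups (Kcnk6 lost), and to 2 between the nanotubes with DESeq2 size factors or only the 2 groups (Kcnk6 lost) or the block (Trpm2 lost). The cause was not tested.

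Leaving out 1 library gave 0 to 1 channels called for DiBASC2, 0 to 0 for Di-2-ANEPEQ, Fura-2 and AAV, 3 to 3 for LPS, 4 to 5 for (GT)6 SWCNT and 2 to 4 for COOH SWCNT against control. It gave 0 to 1 between the dyes, 0 to 2 between the nanotubes, 2 to 3 for (GT)6 SWCNT against LPS and 3 to 4 for COOH SWCNT against LPS. Replicate numbers did not pair the samples: the deviations of same-numbered libraries had a mean r of −0.003, 0 of 84 pairs exceeded 0.1, and 5 of 24 libraries correlated best with their own number. The block changed the number of channels called by over 1.5 times only between the dyes.

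Over all genes, DiBASC2 called 1259 genes with length and GC trends removed against 717, Di-2-ANEPEQ 814 with only the 2 groups against 404, and the dyes against each other 1823 with length and GC trends removed against 1174. Fura-2 called 188, 80, 65 and 53 genes with no filter, only the 2 groups, DESeq2 and trends removed, against 33. Without control replicate 1 the count was 333 for DiBASC2, 120 for Di-2-ANEPEQ, 0 for Fura-2 and 273 for AAV (656 with all), and without control replicate 3 it was 165, 0 and 157 for the last 3 of these. It was 459 without DiBASC2 replicate 3, 129 and 190 without Di-2-ANEPEQ replicates 2 and 3, 177 and 278 without AAV replicates 2 and 3, and for Fura-2 57 without control replicate 2, 106 without Fura-2 replicate 1 and 0 without Fura-2 replicate 2 or 3. Between the dyes it was 652 and 754 without DiBASC2 replicates 1 and 2 and 610 and 677 without Di-2-ANEPEQ replicates 1 and 2. The share of calls that were higher moved with upper-quartile factors from 33.3% to 54.9% for DiBASC2, 48.7% to 35.4% for LPS, 36.7% to 26.3% for AAV, 38.8% to 63.4% between the dyes, 55.6% to 44.4% between the nanotubes, and 44.6% to 57.5% and 47.9% to 62.5% for (GT)6 SWCNT and COOH SWCNT against LPS. With length and GC trends removed it was 19.6% for DiBASC2, 51.8% for AAV, 21.6% between the dyes, 70.4% between the nanotubes and 34.9% for COOH SWCNT (46.9% before). For Fura-2 it went from 15.2% to 30.0% with only the 2 groups and 27.7% with DESeq2. Depth limits Kcna3 most; its interval reaches 0.99 on the log2 scale for DiBASC2.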
